A study of Mus musculus with 10 samples.

Results

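The 34 genes described here mark the cells of blood vessels, 28 of them endothelial cells and 6 the mural cells (pericytes and smooth muscle) that wrap them. They were listed by gene name, with earlier results of these data known, and all 34 were found among the 47729 genes of the count table. The vessels meant are those of the choroid, the vascular bed that lies directly under the retinal pigment epithelium (RPE). RNA taken from the RPE of an eyecup can carry some choroidal RNA with it. Whether the vessel RNA came from the choroid or from remaining retina was not tested. The study profiled RPE RNA of both eyes of 5 CD1 mice, a wild-type strain, aged 40 days (P40), and eyes are numbered here by mouse. The control eye of each mouse had received AAV Best1 GFP, and the other eye AAV Best1 GFP together with AAV Best1 hNrf2 (the Nrf2 eye). AAV is an adeno-associated virus used as a gene vector, Best1 here is a human promoter active in the RPE, GFP is a fluorescent protein, and Nrf2 is a transcription factor of the oxidative stress response, delivered as the human coding sequence by subretinal injection. All 10 eyes therefore carried GFP, the Nrf2 eyes carried an additional vector, in a different capsid, and a control eye with a matched vector dose was not analysed here. RNA was taken from eyecups without the retina, from which adhering tissue had been trimmed, and its polyA fraction was amplified.

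Endothelial cells hold together through VE-cadherin (Cdh5), PECAM-1 (Pecam1) and claudin-5 (Cldn5), and they read signals through receptors such as Tie2 (Tek), the angiopoietin receptor. The choriocapillaris, the capillary sheet facing the RPE, is fenestrated, and the diaphragms of its pores are made of Plvap. It depends on vascular endothelial growth factor (Vegfa) that the RPE secretes. Transcription factors of the ETS family (Erg, Fli1, Ets1) and of the SoxF group (Sox17, Sox18) set endothelial gene expression, and ETS factors bind DNA around the letters GGAA.

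The libraries held 12298404 to 27310638 counts, and values are given as CPM, which are counts scaled to a library total of 1000000. A count of 0 allows up to 3 counts, which is 0.110 to 0.244 CPM in these libraries, for counting error only. The targeted gene checked the labels: mouse Nfe2l2 was at 81.7, 80.8, 91.9, 79.3 and 109.6 CPM in control eyes 1 to 5 and at 267, 352, 414, 371 and 359.5 CPM in Nrf2 eyes 1 to 5 (log2 fold change 1.97 ± 0.11 (SE, n = 5), adjusted p = 2.99e-04 in edgeR's quasi-likelihood test with the mouse as a block). The vector carries the human sequence, and how its reads were assigned to the mouse gene was not tested. Throughout, the SE is that of the 5 differences between the eyes of a mouse, and p-values of edgeR are adjusted over all tested genes. The 15 RPE markers summed to between 13584 and 48467 CPM, against 123 to 364 CPM for the 28 endothelial genes, which is 0.0123% to 0.0364% of all counts. The markers of the labelled cell type were thus far above those of vessels in every library. In bulk RNA, fewer cells of a type and less RNA per cell cannot be told apart.

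All 34 genes passed the filter on low counts, yet most were at low levels. The mean over the 10 libraries was under 10 CPM for 26 of them, and 29 stayed above the limit of 3 counts in every library. Compared per kilobase of exon, the levels were led by Aqp1, a water channel, at 36.8 CPM per kb. Plvap followed at 13.7 and Rgcc, a cell cycle regulator of endothelial cells, at 11.3 CPM per kb. The mural gene with the highest level was Notch3 (5.50 CPM per kb), a receptor of vascular smooth muscle. At the other end were Robo4, Flt4 and Erg, at 0.166, 0.158 and 0.146 CPM per kb.

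Promoter sequence was at hand for 18 of the 34 genes, as 18 windows of 13 endothelial genes and 5 windows of 5 mural genes, each the 250 bases before a RefSeq transcription start in build GRCm38.p6. On both strands, the ETS form AGGAAG was present in 10 of the 18 endothelial windows (55.6%), in 0 of the 5 mural windows and in 29.5% of all 32851 windows. A second ETS form, CCGGAA, was in 0 endothelial windows, 0 mural windows and 12% of all windows, so that the share with either form was 55.6% for the endothelial genes against 38.2% of all. The forms share the letters GGAA but cannot lie on the same copy of them. The antioxidant response element to which Nrf2 binds, searched as TGACNNNGC, was in 1 endothelial window, of Egfl7 (5.56%), in 0 mural windows and in 10.2% of all. The 2 windows of Ly6c1 overlap, Egfl7 and Erg have 3 separate windows each, and a match describes letters, not a bound site. The windows of Tie1 and Robo4 (receptors) and of Emcn (endomucin, a surface sialomucin) are shown because they hold AGGAAG, and that of Rgs5 (a pericyte regulator of G protein signalling) because it does not. Capitals mark AGGAAG or its reverse complement CTTCCT, and all run 5′ to 3′ on the strand of the gene.
Tie1, chr4:118489850-118490099, minus strand: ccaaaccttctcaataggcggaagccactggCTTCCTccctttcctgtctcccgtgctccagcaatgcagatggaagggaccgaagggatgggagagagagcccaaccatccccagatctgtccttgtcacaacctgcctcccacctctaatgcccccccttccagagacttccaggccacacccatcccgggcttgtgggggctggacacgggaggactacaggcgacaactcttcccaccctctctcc
Robo4, chr9:37401722-37401971, plus strand: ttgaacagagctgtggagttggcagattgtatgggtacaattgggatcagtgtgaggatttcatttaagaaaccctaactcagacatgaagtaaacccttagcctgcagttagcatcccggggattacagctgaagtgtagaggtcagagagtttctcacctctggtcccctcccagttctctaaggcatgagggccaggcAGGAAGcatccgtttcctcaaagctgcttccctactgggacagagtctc
Emcn, chr3:137340828-137341077, plus strand: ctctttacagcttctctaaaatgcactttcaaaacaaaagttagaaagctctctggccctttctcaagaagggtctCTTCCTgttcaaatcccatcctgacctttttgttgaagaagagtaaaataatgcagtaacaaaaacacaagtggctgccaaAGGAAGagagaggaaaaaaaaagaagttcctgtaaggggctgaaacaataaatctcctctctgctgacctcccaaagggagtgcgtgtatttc
Rgs5, chr1:169655251-169655500, plus strand: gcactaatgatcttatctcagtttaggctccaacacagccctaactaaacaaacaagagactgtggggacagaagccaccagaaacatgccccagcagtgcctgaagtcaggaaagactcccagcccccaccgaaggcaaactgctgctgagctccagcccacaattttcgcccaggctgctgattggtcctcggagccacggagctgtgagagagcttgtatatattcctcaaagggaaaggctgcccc

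None of the 34 genes passed the test between Nrf2 and control eyes: 0 rose and 0 fell by edgeR's quasi-likelihood test at an adjusted p of 0.05, against 3.60% of the 16362 tested genes that rose and 2.73% that fell. At an unadjusted p under 0.05 the test marked 5 of them, against 19.1% of all tested genes, of which Fli1, Ets1, Ecscr and Ly6c1 were higher in the Nrf2 eyes and Cspg4 was lower. DESeq2 called Fli1 and Ly6c1 higher and Cspg4 lower, with 5.42% of its 19592 genes called higher and 3.83% lower. The median log2 fold change was 0.32 over the 28 endothelial genes, 26 of which had a positive value, 0.12 over the 6 mural genes, and -0.01 over all genes tested. The ranges of the groups overlapped for each of the 34 genes, while they did not for 6.28% of all tested genes. Erg and Ly6c1 were higher in the Nrf2 eye of all 5 mice and Cspg4 lower in all 5, which is 3 of 34 genes with 1 direction throughout, against 19.5% of all tested genes.

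**Figure D1:**
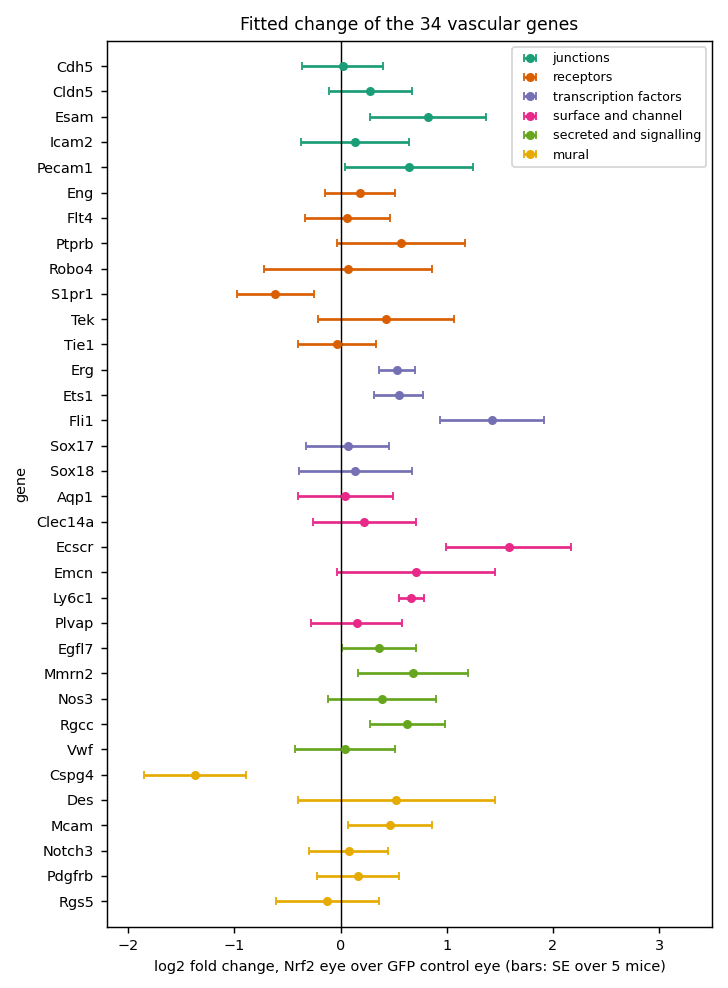
Log2 fold change of each of the 34 genes, Nrf2 eye over GFP control eye, with the SE over 5 mice as bars and colours for the role of the gene. Endothelial values lie between -0.61 and 1.58 with a median of 0.32, and Cspg4 has the lowest value of all, at -1.37.

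The level of the endothelial genes differed more between libraries than between the groups. Their mean log2 CPM stood at 1.87, 2.61, 0.45, 2.95 and 1.18 in control eyes 1 to 5, and at 2.14, 2.74, 1.56, 2.29 and 2.35 in Nrf2 eyes 1 to 5. The control eyes spread over a wider range (SD 1.02, n = 5) than the Nrf2 eyes (SD 0.43, n = 5). Among control eyes, that of mouse 3 had the lowest value for 19 of the 28 genes and that of mouse 5 for 8, while mouse 4 had the highest value for 19 and mouse 2 for 7. Among Nrf2 eyes the lowest value fell to mouse 3 for 17 genes and the highest to mouse 2 for 14. The eye of mouse 3 was thus the poorest in endothelial RNA in both groups. The sum over the 28 genes ran from 123 to 345 CPM in control eyes and from 179 to 364 CPM in Nrf2 eyes, and without Aqp1, which alone made up much of it, from 60.3 to 291 CPM and from 115 to 233 CPM.

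In mice 3, 4 and 5 most endothelial genes differed in 1 direction between the eyes, but that direction was not the same in these mice. In mice 3 and 5, whose control eyes held the least endothelial RNA, 26 of 28 genes were higher in the Nrf2 eye, with median differences of 0.99 and 1.08 in log2 CPM. In mouse 4, whose control eye held the most, 6 of 28 were higher and the median difference was -0.91. The control level is part of each difference, so a low control eye favours a positive value and a high one a negative value. The order of these mice is thus no separate result. Mouse 1 had 19 of 28 higher (median 0.28) and mouse 2 had 15 of 28 (median 0.06). Over all tested genes the share that was higher in the Nrf2 eye lay between 43.9% (mouse 1) and 56.5% (mouse 4). When the mean difference of the other endothelial genes was subtracted in each mouse, the SD of the 5 differences became smaller for 24 of the 28 genes, and the median SD went from 1.02 to 0.70. The 4 exceptions were Aqp1, Erg, Ets1 and Ly6c1. The subtracted mean came from the same list, and the subtraction was not made for genes outside it. Whether the narrowing is particular to vessel genes was not tested.

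**Figure D2:**
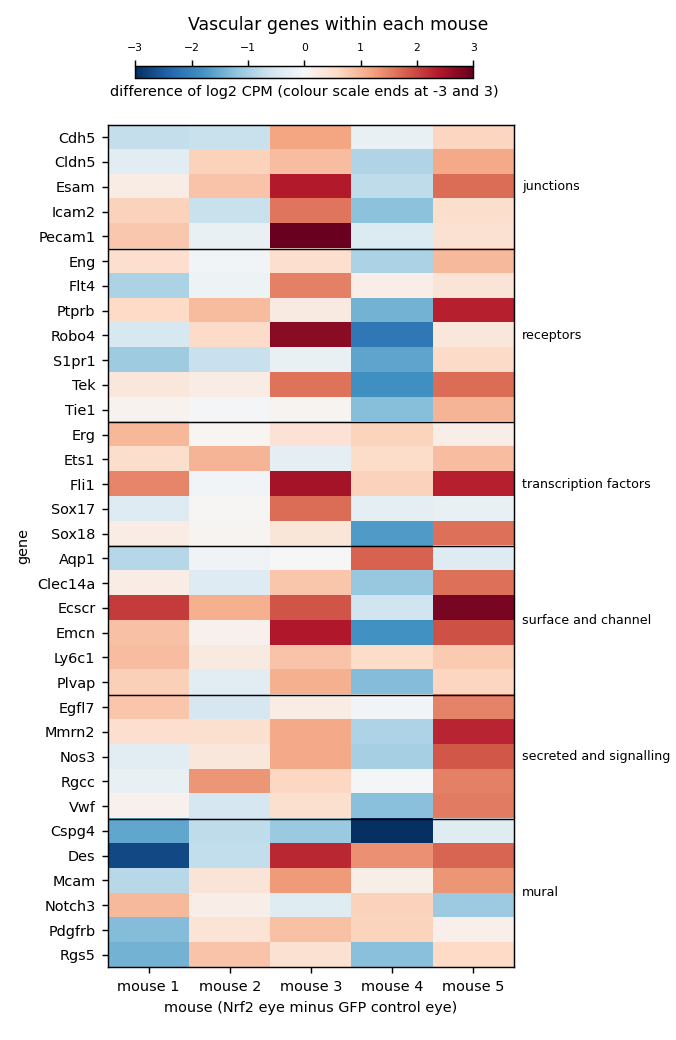
Difference of log2 CPM, Nrf2 eye minus GFP control eye, for each of the 34 genes (rows, grouped by role) in each of the 5 mice (columns), in red where the Nrf2 eye was higher and in blue where it was lower. Most endothelial rows are red in mice 3 and 5 (26 of 28 genes each) and blue in mouse 4, while the row of Cspg4 is blue in all 5 mice.

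RNA of other neighbouring tissues also differed between libraries. The 12 rod photoreceptor genes summed to 20965 and 3268 CPM in the control eyes of mice 2 and 4, against 163 to 516 CPM in the other control eyes, and to 8202 CPM in the Nrf2 eye of mouse 2, against 310 to 538 CPM in the other Nrf2 eyes. These control eyes were also the 2 richest in endothelial RNA. The 4 globin genes, which stand for red blood cells, summed to 273, 808, 268, 2153 and 367 CPM in control eyes 1 to 5 and to 460, 802, 365, 981 and 2485 CPM in the Nrf2 eyes, so that mouse 3 was lowest and mouse 4 highest among control eyes, as for the endothelial genes. None of the globins passed the test (smallest adjusted p = 0.669 in edgeR, 0 at an unadjusted p under 0.05), and Slc4a1, an anion exchanger of red cells, was at 0 in 3 libraries. Among control eyes the 14 fibroblast genes were also lowest in mouse 3 but highest in mouse 1, with 1158, 658, 609, 710 and 830 CPM in control eyes and 507, 728, 825, 1557 and 1159 CPM in Nrf2 eyes, and none of them was at 0 in any library. The 15 skeletal muscle genes were at 96.1 to 201 CPM in control eyes but at 17.2 and 39.4 CPM in the Nrf2 eyes of mice 1 and 2 and at 725, 486 and 1124 CPM in those of mice 3, 4 and 5.

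**Figure D3:**
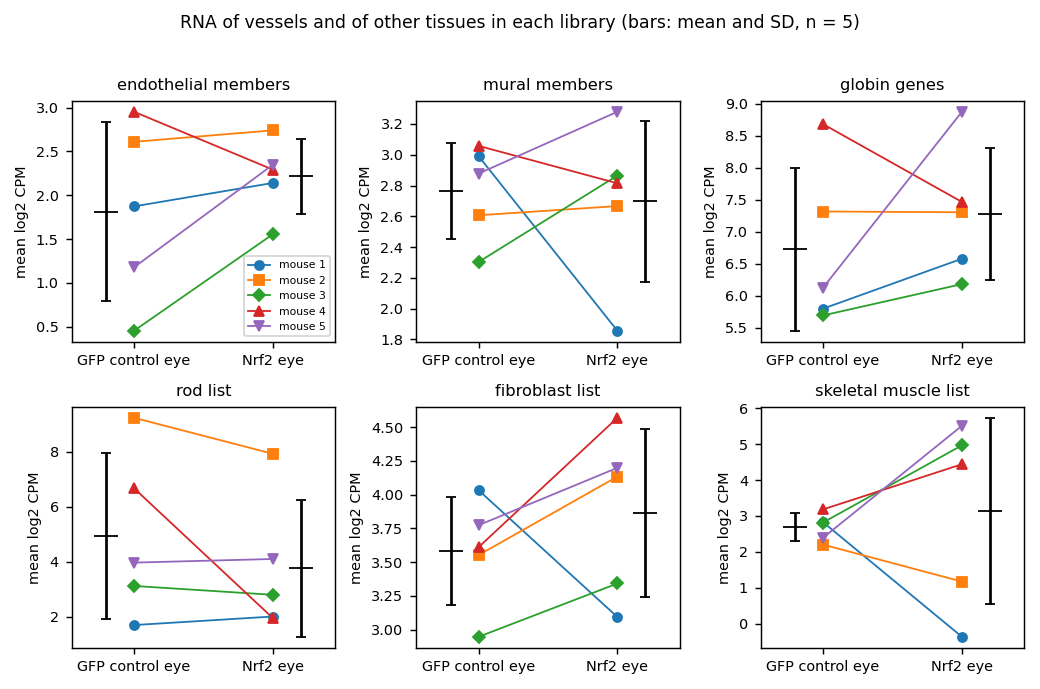
Mean log2 CPM of 6 gene lists in the GFP control eye and the Nrf2 eye of each mouse (joined by a line), with the mean and SD of 5 eyes as bars. The endothelial genes and the globins are both highest among control eyes in mouse 4 (2.95 and 8.68) and lowest in mouse 3 (0.45 and 5.70), while among Nrf2 eyes the endothelial genes are highest in mouse 2 (2.74) and the globins in mouse 5 (8.87).

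The median fold change of the endothelial genes depended on what was taken into the fit. With the mean level of 35 other endothelial genes as a covariate it was 0.12 in place of 0.32, with that of blood genes 0.09, and without the mouse block 0.10. It was 0.72 with rod genes as a covariate and 0.83 when mice 2 and 4 were left out. Without mouse 5 it was 0.09, without mouse 3 0.18, and without mouse 4 0.63. With the covariate of other endothelial genes S1pr1 and Cspg4 were called lower (3.70% of all tested genes were called lower in that fit), with the blood covariate Cspg4 (2.72%), and with the rod covariate Ecscr was called higher (2.00% called higher).

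The 5 junction genes had fold changes from 0.02 to 0.82 on the log2 scale and none passed the test. Cdh5 (chr8:104101625-104144511, plus strand, GRCm38) was at 0.816, 2.65, 0.768, 2.21 and 0.696 CPM in control eyes 1 to 5 and at 0.455, 1.63, 1.88, 1.87 and 1.15 CPM in Nrf2 eyes 1 to 5. It was low, with 10 to 50 counts per library, and its groups overlapped throughout (log2 fold change 0.02 ± 0.38 (SE, n = 5), adjusted p = 0.990). Pecam1 (chr11:106654217-106750628, minus strand), an adhesion molecule of endothelium also found on platelets and leukocytes, was at 3.47, 6.90, 2.58, 12.5 and 5.46 CPM in control eyes 1 to 5 and at 6.19, 5.94, 20.9, 9.43 and 7.47 CPM in Nrf2 eyes 1 to 5. Its highest value was in the Nrf2 eye of mouse 3, the eye in which 17 other endothelial genes were at their lowest among Nrf2 eyes (log2 fold change 0.64 ± 0.60 (SE, n = 5), adjusted p = 0.589). Cldn5 (chr16:18776847-18778262, plus strand), the claudin of tight endothelial junctions, was at 6.73, 4.00, 0.628, 8.72 and 1.24 CPM in control eyes 1 to 5 and at 5.37, 6.55, 1.28, 4.63 and 2.85 CPM in Nrf2 eyes 1 to 5, with both eyes of mouse 3 at the bottom of their groups (log2 fold change 0.28 ± 0.39 (SE, n = 5), adjusted p = 0.784). Esam and Icam2, adhesion molecules of the immunoglobulin family, had log2 fold changes of 0.82 and 0.14 and ranged over 0.489 to 11.1 CPM and 0.279 to 3.70 CPM.

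Among the 7 receptors, log2 fold changes lay between -0.61 and 0.57. S1pr1 (chr3:115710433-115715072, minus strand), the receptor for sphingosine-1-phosphate that tightens the endothelial barrier, was at 17.4, 19.3, 7.05, 14.9 and 6.37 CPM in control eyes 1 to 5 and at 8.24, 12.1, 6.02, 4.96 and 9.47 CPM in Nrf2 eyes 1 to 5. It was lower in the Nrf2 eye of 4 mice and higher in mouse 5, and the groups overlapped (log2 fold change -0.61 ± 0.37 (SE, n = 5), adjusted p = 0.344). After the level of other endothelial genes was taken into the fit its value was -0.81 with an adjusted p of 0.0408 in edgeR. The 16 alternatives gave -0.88 (without mouse 5) to -0.25 (without mice 2 and 4), with adjusted p from 0.0408 to 0.930, and the value was -0.33 without mouse 4 and -0.28 with the rod covariate, which did not pass. Tek was at 2.40, 5.67, 0.628, 6.99 and 1.54 CPM in control eyes 1 to 5 and at 3.05, 6.59, 2.14, 1.87 and 5.10 CPM in Nrf2 eyes 1 to 5, high in both eyes of mouse 2 and opposite in mice 4 and 5 (log2 fold change 0.43 ± 0.64 (SE, n = 5), adjusted p = 0.783). Tie1, the partner of Tie2, and Ptprb, the phosphatase VE-PTP that acts on Tie2, had log2 fold changes of -0.03 and 0.57. Eng, a co-receptor of the TGF-beta family, had 0.18, and its position overlaps Fpgs on the opposite strand. Robo4 and the VEGF-C receptor Flt4 had 0.07 and 0.06, and both had 0 counts in the control eye of mouse 3, which allows up to 0.209 CPM there.

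Of the 5 transcription factors, those of the SoxF group had log2 fold changes near 0 (0.07 for Sox17 and 0.14 for Sox18), whereas the ETS factors had 0.53 to 1.42. Sox18 (chr2:181669836-181671640, minus strand) was at 1.79, 3.57, 0.559, 5.73 and 1.06 CPM in control eyes 1 to 5 and at 2.09, 3.78, 0.752, 1.71 and 3.58 CPM in Nrf2 eyes 1 to 5, in much the order of the other endothelial genes, with control eye 3 lowest and control eye 4 highest (log2 fold change 0.14 ± 0.54 (SE, n = 5), adjusted p = 0.931). Fli1 was at 1.12, 2.22, 0.838, 1.97 and 1.57 CPM in control eyes 1 to 5 and at 3.28, 2.07, 5.23, 3.25 and 8.38 CPM in Nrf2 eyes 1 to 5. It was higher in the Nrf2 eye of 4 mice, with mouse 5 highest (log2 fold change 1.42 ± 0.49 (SE, n = 5), adjusted p = 0.138; adjusted p = 0.0253 in DESeq2). In the other alternatives Fli1 had 1.17 to 2.19 and adjusted p from 0.0715 to 0.317. Ets1 was at 9.33, 7.33, 5.10, 13.6 and 6.37 CPM in control eyes 1 to 5 and at 13.6, 14.9, 4.17, 19.8 and 12.2 CPM in Nrf2 eyes 1 to 5, lower in the Nrf2 eye of mouse 3 only (log2 fold change 0.55 ± 0.23 (SE, n = 5), adjusted p = 0.214). Erg, an ETS factor typical of endothelium, was at 0.140 to 0.850 CPM, or 2 to 20 counts, and its log2 fold change was 0.53. Fli1 and Ets1 are also made by leukocytes, and genes of microglia and macrophages were higher in the Nrf2 eyes: 11 of 13 rose, among them P2ry12 (log2 fold change 5.90) and Ctss (3.98), their sum was 174 to 293 CPM in control eyes and 437 to 2176 CPM in Nrf2 eyes, and none of the 13 was at 0 in any library. The sums in Nrf2 eyes 1 to 5 were 1020.5, 437, 773, 1279 and 2176 CPM. Among Nrf2 eyes, Fli1 was highest in mouse 5, which had the highest sum, and next highest in mouse 3, which had the second lowest. Ets1 was highest in mouse 4. In mice 1 to 5, the mean log2 CPM of the 13 rose by 3.22, 2.62, 3.93, 3.88 and 5.46 in the Nrf2 eye. The log2 CPM of Fli1 differed by 1.47, -0.09, 2.50, 0.69 and 2.34, and that of Ets1 by 0.54, 1.02, -0.28, 0.54 and 0.93. The part of these cells in the values of Fli1 and Ets1 was not tested.

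The 6 genes of the endothelial surface had fold changes from 0.05 to 1.58 on the log2 scale. Plvap (chr8:71497765-71511752, minus strand), the diaphragm protein of fenestrated capillaries, was at 28.0, 46.2, 5.73, 46.2 and 12.9 CPM in control eyes 1 to 5 and at 45.6, 37.3, 12.1, 18.8 and 20.2 CPM in Nrf2 eyes 1 to 5. Its highest and lowest libraries were 8.07-fold apart. It was higher in the Nrf2 eye of 3 mice and lower in 2 (log2 fold change 0.15 ± 0.43 (SE, n = 5), adjusted p = 0.890). It overlaps Gtpbp3 on the opposite strand, which had a mean of 13.6 CPM and a log2 fold change of -0.01. Aqp1 (chr6:55336432-55348555, plus strand) was at 115, 109, 62.6, 53.7 and 122 CPM in control eyes 1 to 5 and at 63.9, 101, 63.3, 182 and 93.8 CPM in Nrf2 eyes 1 to 5. In mouse 4 the control eye was its lowest and the Nrf2 eye its highest value, and it differed against the majority of the endothelial genes in mice 1, 2, 4 and 5 (log2 fold change 0.05 ± 0.44 (SE, n = 5), adjusted p = 0.970), and subtracting the other endothelial genes widened the SD of its differences from 0.99 to 1.66. Aqp1 is also abundant in red blood cells and some other cells of the eye.

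Ly6c1, a surface protein of endothelial cells and of some leukocytes, was at 5.41, 10.2, 3.49, 12.4 and 5.05 CPM in control eyes 1 to 5 and at 10.3, 12.4, 6.39, 18.2 and 8.74 CPM in Nrf2 eyes 1 to 5. It was higher in the Nrf2 eye of all 5 mice, with an SD of 0.27 over the 5 differences, but the groups overlapped and it missed the threshold (log2 fold change 0.67 ± 0.12 (SE, n = 5), adjusted p = 0.0776; adjusted p = 0.0211 in DESeq2). In the other alternatives it had 0.60 to 0.87 and adjusted p from 0.0695 to 0.518. Ly6c1 has a close copy, Ly6c2, that can share its reads. Ecscr, a regulator of endothelial migration, was at 0.714, 1.29, 0.140, 2.51 and 0.439 CPM in control eyes 1 to 5 and at 3.42, 2.81, 0.790, 1.63 and 3.76 CPM in Nrf2 eyes 1 to 5, with 2 to 75 counts per library (log2 fold change 1.58 ± 0.59 (SE, n = 5), adjusted p = 0.196). It was higher in the Nrf2 eye of 4 mice and lower in mouse 4. With the rod covariate its value was 2.41 with an adjusted p of 0.0314 in edgeR. No other alternative passed, with values from 1.17 (blood covariate) to 2.63 (without mice 2 and 4) and adjusted p from 0.0563 to 0.404. Emcn and Clec14a, glycoproteins of capillary endothelium, had log2 fold changes of 0.71 and 0.22 and both were lower in the Nrf2 eye of mouse 4.

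The 5 secreted and signalling genes had log2 fold changes from 0.04 to 0.68. Rgcc (chr14:79288756-79301645, minus strand) was at 4.03, 10.2, 4.82, 19.9 and 2.49 CPM in control eyes 1 to 5 and at 3.42, 25.6, 7.48, 18.9 and 7.28 CPM in Nrf2 eyes 1 to 5, high in both eyes of mouse 4 and in the Nrf2 eye of mouse 2 (log2 fold change 0.63 ± 0.35 (SE, n = 5), adjusted p = 0.315). Vwf, the clotting factor stored in endothelial granules, was at 13.8, 15.6, 6.56, 30.9 and 2.20 CPM in control eyes 1 to 5 and at 15, 11, 9.14, 12.8 and 6.62 CPM in Nrf2 eyes 1 to 5. Its lowest value was in the control eye of mouse 5 and its highest in that of mouse 4 (log2 fold change 0.04 ± 0.47 (SE, n = 5), adjusted p = 0.976). Egfl7 and Mmrn2, proteins of the vessel matrix, had log2 fold changes of 0.37 and 0.68, and Nos3, the endothelial nitric oxide synthase, had 0.39. Egfl7 overlaps Agpat2 on the opposite strand (34.9 CPM, log2 fold change 0.27), and Nos3 overlaps Atg9b (1.54 CPM, 0.29).

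The 6 mural genes did not share the pattern of the endothelial genes in every mouse. In mouse 1 only 1 of 6 was higher in the Nrf2 eye (median difference -1.35), and in mice 2 to 5 4 of 6 were, also in mouse 4, where the endothelial genes were lower. Pdgfrb, the PDGF receptor through which pericytes are recruited, was at 11.2, 6.35, 4.96, 6.87 and 8.82 CPM in control eyes 1 to 5 and at 4.51, 8.46, 9.18, 11.1 and 9.90 CPM in Nrf2 eyes 1 to 5, which was the narrowest range of the 34 genes, 2.48-fold (log2 fold change 0.16 ± 0.38 (SE, n = 5), adjusted p = 0.865). Rgs5 (chr1:169655501-169695813, plus strand) was at 1.38, 3.94, 1.68, 4.78 and 2.23 CPM in control eyes 1 to 5 and at 0.455, 7.20, 2.33, 1.95 and 3.46 CPM in Nrf2 eyes 1 to 5, highest in the Nrf2 eye of mouse 2 and lowest in that of mouse 1 (log2 fold change -0.12 ± 0.49 (SE, n = 5), adjusted p = 0.933). Notch3 (chr17:32120820-32166852, minus strand) was at 29.5, 33.0, 35.0, 25.1 and 108 CPM in control eyes 1 to 5 and at 58.4, 38.0, 27.3, 40.4 and 50.8 CPM in Nrf2 eyes 1 to 5, with the control eye of mouse 5 far above the other 9 (log2 fold change 0.07 ± 0.37 (SE, n = 5), adjusted p = 0.945). Mcam, an adhesion molecule of pericytes and endothelium, ranged over 0.908 to 3.64 CPM, and its log2 fold change was 0.46.

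Cspg4, the NG2 proteoglycan of pericytes, was at 19.4, 6.16, 13.5, 21.9 and 6.96 CPM in control eyes 1 to 5 and at 6.51, 3.62, 6.17, 2.44 and 5.40 CPM in Nrf2 eyes 1 to 5. It was lower in the Nrf2 eye of all 5 mice, and the groups met only at the edge, with a highest Nrf2 value of 6.51 and a lowest control value of 6.16 CPM. It missed the threshold in edgeR (log2 fold change -1.37 ± 0.48 (SE, n = 5), adjusted p = 0.0996). It passed in DESeq2 (adjusted p = 0.00455), in edgeR with the covariate of other endothelial genes (adjusted p = 0.0279) and in edgeR with the blood covariate (adjusted p = 0.0305). In the other alternatives it did not pass, with values from -1.61 (without mouse 5) to -0.90 (rod covariate) and adjusted p from 0.0512 to 0.304. The other 5 mural genes had log2 fold changes from -0.12 (Rgs5) to 0.53 (Des). Des, the intermediate filament desmin of pericytes and of all muscle, was at 8.62, 3.33, 3.21, 5.85 and 6.55 CPM in control eyes 1 to 5 and at 1.23, 1.95, 15.7, 15.2 and 22.3 CPM in Nrf2 eyes 1 to 5, split into 2 low and 3 high Nrf2 eyes (log2 fold change 0.53 ± 0.93 (SE, n = 5), adjusted p = 0.810). The same 3 eyes, of mice 3, 4 and 5, held 486 to 1124 CPM of the skeletal muscle genes, against 17.2 to 39.4 CPM in the other 2. The log2 fold change of Des was -0.0063 with the muscle covariate and -0.22 with the fibroblast covariate, and the part of either tissue in it was not tested.

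Of 27 tested genes among 35 other endothelial markers, 0 rose and 2 fell. Of all tested genes, 3.60% rose and 2.73% fell. The median log2 fold change of the 27 was 0.23. Ramp2, the subunit that with Calcrl forms the adrenomedullin receptor, was at 76.6, 32.0, 45.5, 86.8 and 34.5 CPM in control eyes 1 to 5 and at 26.4, 13.3, 15.6, 29.8 and 15.3 CPM in Nrf2 eyes 1 to 5, lower in all 5 mice with no overlap of the groups (log2 fold change -1.43 ± 0.08 (SE, n = 5), adjusted p = 5.44e-04). Apold1, an early response gene of endothelium, fell as well (log2 fold change -1.52 ± 0.26 (SE, n = 5), adjusted p = 0.0128). Kdr, the main VEGF receptor, was at 7.40, 24.9, 2.30, 12.1 and 6.33 CPM in control eyes 1 to 5 and at 7.24, 41.8, 5.64, 6.26 and 3.64 CPM in Nrf2 eyes 1 to 5, high in both eyes of mouse 2 (log2 fold change 0.03 ± 0.43 (SE, n = 5), adjusted p = 0.983). Of 17 tested genes among 20 other mural markers, 10 had a positive and 7 a negative log2 fold change, with a median of 0.04, and 1 fell: Kcnj8, a potassium channel subunit of pericytes, at 5.76, 9.43, 16.9, 31.6 and 14.8 CPM in control eyes 1 to 5 and at 0.865, 1.42, 3.01, 5.45 and 2.67 CPM in Nrf2 eyes 1 to 5 (log2 fold change -2.60 ± 0.04 (SE, n = 5), adjusted p = 2.86e-04). Abcc9, its partner in the same channel, had a log2 fold change of 0.07 (adjusted p = 0.941, edgeR). Capillary markers Car4 and Higd1b were at 0 in 6 and 5 of the 10 libraries.

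Some ligands for these receptors changed. Of 19 tested ligands and other signals to vessels, 2 rose and 2 fell, against 3.60% and 2.73% of all tested genes. Vegfa was at 305, 228, 319, 327 and 228 CPM in control eyes 1 to 5 and at 157, 144, 229, 156 and 129 CPM in Nrf2 eyes 1 to 5, lower in all 5 mice (log2 fold change -0.81 ± 0.10 (SE, n = 5), adjusted p = 0.00853). Angpt1, the ligand that activates Tie2, was at 4.28, 1.79, 0.698, 3.11 and 1.79 CPM in control eyes 1 to 5 and at 8.74, 11, 8.42, 16.8 and 14.9 CPM in Nrf2 eyes 1 to 5, higher in all 5 (log2 fold change 2.48 ± 0.41 (SE, n = 5), adjusted p = 0.00867). Adm, which codes for adrenomedullin, rose (log2 fold change 5.71 ± 0.42 (SE, n = 5), adjusted p = 2.99e-04), and Bmp4 fell (log2 fold change -1.24 ± 0.14 (SE, n = 5), adjusted p = 0.00311). Jag1, a ligand of Notch3, and Pdgfb, the ligand of Pdgfrb, had log2 fold changes of -0.42 and 1.01 with adjusted p of 0.173 and 0.203 in edgeR. The receptors Tek, Notch3 and Pdgfrb, as given above, did not pass, with log2 fold changes of 0.43, 0.07 and 0.16. The differences between ligand and receptor changes were not tested.

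**Figure D4:**
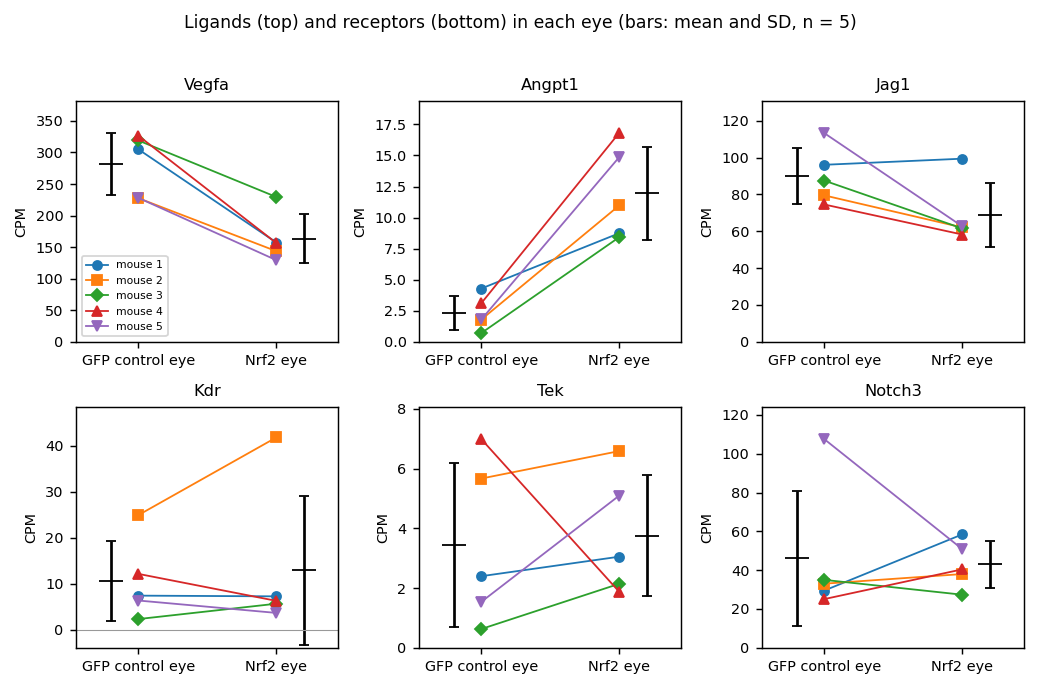
CPM of 3 ligands (Vegfa, Angpt1, Jag1) above and of 3 receptors (Kdr, Tek, Notch3) below, in the GFP control eye and the Nrf2 eye of each mouse, with the mean and SD of 5 eyes as bars. The lines of Vegfa all go down and those of Angpt1 all go up, while the lines of Tek cross (2.40 to 3.05 CPM in mouse 1, 6.99 to 1.87 CPM in mouse 4).

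Calls in the other lists are read against the 6.33% of all tested genes called in either direction, and the microglia and macrophage list, with 11 of 13, is given above. Among 5 tested lymphatic genes Pdpn, a surface glycoprotein of lymphatic endothelium and other cells, fell (log2 fold change -0.63, adjusted p = 0.0270 in edgeR). Among 12 tested fibroblast genes Col6a3 rose (2.56, adjusted p = 0.00177 in edgeR). Among 10 tested genes of barrier endothelium Slco1a4, a transporter that the RPE also makes, fell (-1.33, adjusted p = 0.00917 in edgeR). Of 8 tested genes of melanocytes and Schwann cells Sox10 fell (-1.74) and Cdh19 rose (2.89), with adjusted p of 0.00291 and 0.00326 in edgeR. None of 15 skeletal muscle, 11 rod or 5 blood genes passed, with medians of 0.70, -1.13 and 0.52 on the log2 scale and 0, 1 and 0 genes at an unadjusted p under 0.05. Of the 15 RPE genes 6 fell, namely Rpe65 (-2.88), Rgr (-2.87), Lrat (-2.26), Rlbp1 (-1.93), Rdh5 (-1.42) and Otx2 (-0.63).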

How the data were processed

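RNA was sequenced from the RPE of 5 CD1 mice at P40, 1 GFP control eye and 1 Nrf2 eye each, paired by the animal number in the labels. Per the study's methods, the authors ran a bcbio pipeline with FastQC, aligned reads with STAR to mm10 with Ensembl transcripts and counted with featureCounts, and in parallel quantified with Salmon (0.8.2 per the submitters' processing notes). The authors deposited raw counts for Ensembl genes, not normalized. Which tool's counts they are, and the strand setting, are not given in the sources used here, so overlapping genes on opposite strands are uncertain. The table held 47729 genes and no column of other samples.

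Library totals were 12298404 to 27310638 counts. CPM were counts divided by these totals. Genes passing filterByExpr (16362) were normalized by TMM and tested with edgeR 4.0.16 (R 4.3.3), using the quasi-likelihood F test, a block for the mouse, and p-values adjusted over all of them by Benjamini-Hochberg (threshold 0.05). Log2 fold changes are fitted values. The SE beside them comes from the SD of 5 paired log2 CPM differences (prior count 2). DESeq2 1.42.0, other filters and normalizations, carryover covariates (mean log2 CPM of a list) and left-out mice served as alternatives. The pairing was checked by the correlation, across genes, of deviations from the group means, which was 0.19 to 0.71 within mice and -0.42 to 0.28 (median -0.08) between mice. The fit was also run on simulated counts drawn without mouse effects or shared carryover. That run cannot show how the paired fit handles either. With the mouse as a block, p-values set the difference between the eyes of a mouse against its remaining spread over 5 mice.

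Symbols and positions were from GENCODE M21 (GRCm38), promoters from RefSeq. Of the list symbols, Ahsp was not matched. The text gives each of the 34 genes its log2 fold change, and its value in every library for the defining genes Cdh5, Pecam1, Plvap, Rgs5, Pdgfrb and Notch3 and the gene of each role highest per kb of exon. Others with per-library values (Tek, Fli1, Ets1, Ly6c1, Ecscr, Vwf, Cspg4, Des, Kdr) were added after their values were seen. Ramp2, Kcnj8, Vegfa and Angpt1, also given per library, were chosen from the genes past the threshold. Of other lists, up to 6 genes past the threshold are named, by smallest p, beside partners of named genes. The members and lists were chosen with earlier results of these data known.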

Additional observations from a re-analysis of the deposited data

Results flagged for a closer look

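In each group of 5 eyes, the highest and lowest log2 CPM of the 34 genes and of the endothelial and mural means were compared with the nearest other eye, and a gap over 0.71 of the whole range was taken as standing apart. Of 72 groups checked 3 stood apart, where chance alone gives about 3.6.

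Flt4 was lowest in the control eye of mouse 3, at -3.29 in log2 CPM, where no read was counted and the value comes from the prior count, and the next lowest control eye was at 0.08. Eng was lowest in the Nrf2 eye of mouse 3, at 1.80, with the next at 2.92. Notch3 was highest in the control eye of mouse 5, at 6.75, with the next at 5.13.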

How the results depend on the processing

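Across 16 alternatives to the paired edgeR fit, 17 of the 34 genes kept the sign of their log2 fold change in every fit that gave them a value and 17 did not. The number of genes called in the whole table was 1036, and it was 1812 with DESeq2, 654 with the fibroblast covariate, 492 with the rod covariate and 146 without mice 2 and 4, and 584 (without mouse 2) to 857 (without mouse 1) when 1 mouse was left out. Vascular genes called higher numbered 2 with DESeq2 and 1 with the rod covariate, and those called lower 1 with DESeq2, 1 with the blood covariate and 2 with the covariate of other endothelial genes, against 0 in the paired edgeR fit and 0 in every fit without 1 mouse. The causes were not tested. The fits without 2 mice or with the blood covariate were added after seeing the data.

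The animal numbers in the labels pair the eyes. Without the replicate block 755 genes were called, of which 687 were shared with the paired fit, and 0 vascular genes were called in either direction. The median over endothelial genes stayed above 0 in all 16 alternatives (0.09 to 0.83), while that over mural genes was -0.18 with the fibroblast covariate and -0.08 without mice 2 and 4, and 0.02 to 0.37 in the others. The DESeq2 size factors in edgeR and the unfiltered table changed no sign. A minimum mean of 50 counts removed 9 of the genes, which then had no value.

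Without the replicate block the log2 fold change was -0.034 for Cdh5, -0.055 for Cldn5, -0.24 for Icam2, -0.038 for Flt4, -0.21 for Robo4, -0.080 for Sox17, -0.11 for Sox18, -0.047 for Plvap, -0.34 for Vwf, 0.11 for Rgs5 and -0.13 for Notch3. With the covariate of other endothelial genes the log2 fold change was -0.13 for Cdh5, -0.073 for Icam2, -0.19 for Robo4, -0.14 for Sox18, -0.065 for Plvap, -0.054 for Clec14a and -0.20 for Vwf. With the blood covariate the log2 fold change was -0.079 for Cdh5, -0.055 for Icam2, -0.023 for Eng, -0.19 for Robo4, -0.24 for Sox18, -0.052 for Plvap, -0.081 for Clec14a and -0.24 for Vwf. With the fibroblast covariate the log2 fold change was -0.081 for Cdh5, 0.092 for Tie1, -0.15 for Flt4, -0.20 for Aqp1, -0.15 for Pdgfrb and -0.22 for Des. With the muscle covariate the log2 fold change was -0.13 for Cdh5, -0.022 for Flt4, -0.0048 for Aqp1, -0.0059 for Vwf and -0.0063 for Des. With the rod covariate the log2 fold change was 0.41 for Tie1, -0.46 for Aqp1, -0.062 for Pdgfrb, 0.17 for Rgs5 and -0.11 for Notch3. Without mice 2 and 4 the log2 fold change was 0.42 for Tie1, -0.40 for Aqp1, -0.078 for Pdgfrb and -0.16 for Notch3. Leaving out each mouse in turn also changed signs, with ranges of -0.23 to 0.27 for Cdh5, -0.15 to 0.55 for Icam2, -0.28 to 0.32 for Tie1, -0.095 to 0.38 for Flt4, -0.0066 to 0.52 for Eng, -0.36 to 0.70 for Robo4, -0.19 to 0.23 for Sox17, -0.26 to 0.65 for Sox18, -0.014 to 0.55 for Plvap, -0.12 to 0.61 for Clec14a, -0.30 to 0.29 for Aqp1, -0.29 to 0.42 for Vwf, -0.38 to 0.23 for Rgs5 and -0.14 to 0.39 for Notch3. Every such value was from a gene with a log2 fold change between -0.12 and 0.53 in the paired fit. Depth limits the lowest genes, with 2 to 20 counts of Erg and 0 to 50 of Flt4 per library. The spread of the paired differences over 5 mice limits the size of a difference that could be seen.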
